A study of Mus musculus with 40 samples.

Results

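The weak m6A peaks of the mouse midbrain are those with a fold enrichment below 2, the fold enrichment being the reads of a peak in the m6A immunoprecipitate over the reads of the same peak in the input RNA. Each of the 4 groups has 1 consensus list of peaks, made by the authors from pooled libraries, and the weak peaks were selected on the fold enrichment in the list of their own group, which is therefore given below as a description. This rule kept 1622 of 54337 peaks, in 781 genes. The groups were male mice homozygous for an [A30P] alpha-synuclein transgene (aSyn Tg), at 15 mo and at 3 mo, and, as Wt, their C57BL/6J littermates without it at the same ages. The methods place the transgene under the Thy-1 promoter, while the strain name they give carries Th as promoter and a further mutation, and both are given here as they stand. The labels name 5 mice per group, and the sequenced midbrain was not sorted by cell type. One of the 4 lists carries no group name and was taken as aSyn Tg 15 mo because the other lists name the other groups.

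N6-methyladenosine (m6A) is the most abundant internal modification of messenger RNA. A complex with METTL3 and METTL14 writes it, mostly within a short motif around GGAC, FTO and ALKBH5 can erase it, and YTH domain proteins read it. In most tissues it is concentrated in long internal exons and around the stop codon. In MeRIP-seq the RNA is broken into short fragments, m6A fragments are pulled down with an antibody, and a peak is a stretch where pulled-down reads exceed those of the input. A peak of low fold enrichment is one where this excess is small for the amount of input RNA.

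The sequences below show what a weak peak is made of. They are the stretches shared by all 4 lists, or the weak peak itself, read from the GRCm38 (mm10) genome of RefSeq on the strand of the transcript, spliced where a peak spans several exons, with GGAC in capitals. The first set holds intervals below 2 in all 4 lists, chosen for the lowest mean fold enrichment, and besides Meg3 only those whose shared stretch was wholly coding in the transcript used and at most 200 nt long are shown. Meg3, a maternally expressed long noncoding RNA, had its lowest such interval at chr12:109561077-109561167 on the plus strand, in an exon. Zfp148 (chr16:33434879-33434939, plus strand, coding exon) encodes a zinc finger transcription factor, and Myh10 (chr11:68787457-68790107, plus strand, 2 coding exon blocks) non-muscle myosin IIB. Ppp1r9b (chr11:95000304-95001877, plus strand, 3 coding exon blocks) encodes the spine scaffold spinophilin, and Nudc (chr4:133534485-133535722, minus strand, 3 coding exon blocks) a dynein-associated chaperone. Gnl1 (chr17:35988536-35988656, plus strand, coding exon) encodes a GTP-binding protein, and Tubb4a (chr17:57081343-57081432, minus strand, coding exon) a brain beta-tubulin. Pcsk1n (chrX:7922358-7922388, plus strand, coding exon) encodes a secretory granule protein.
Meg3: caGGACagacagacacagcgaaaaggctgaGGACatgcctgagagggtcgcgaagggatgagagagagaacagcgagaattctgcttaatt
Zfp148: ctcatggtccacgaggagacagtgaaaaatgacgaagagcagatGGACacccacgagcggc
Myh10: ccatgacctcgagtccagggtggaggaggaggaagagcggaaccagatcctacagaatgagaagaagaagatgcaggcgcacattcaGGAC
Ppp1r9b: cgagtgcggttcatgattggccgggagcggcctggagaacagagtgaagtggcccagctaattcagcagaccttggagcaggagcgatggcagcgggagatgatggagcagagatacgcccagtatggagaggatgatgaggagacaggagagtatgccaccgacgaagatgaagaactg
Nudc: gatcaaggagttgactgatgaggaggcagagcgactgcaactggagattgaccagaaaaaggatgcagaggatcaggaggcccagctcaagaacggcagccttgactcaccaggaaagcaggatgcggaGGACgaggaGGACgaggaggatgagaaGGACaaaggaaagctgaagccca
Gnl1: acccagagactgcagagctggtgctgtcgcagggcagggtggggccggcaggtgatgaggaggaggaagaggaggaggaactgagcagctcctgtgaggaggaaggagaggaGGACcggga
Tubb4a: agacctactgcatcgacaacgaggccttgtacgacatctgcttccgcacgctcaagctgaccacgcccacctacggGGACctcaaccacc
Pcsk1n: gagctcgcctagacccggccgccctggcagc

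Most of these stretches run in purines. G and A made up 69.2% of the bases in Meg3, 65.6% in Zfp148, 68.1% in Myh10, 67.2% in Ppp1r9b, 71.5% in Nudc and 73.6% in Gnl1, but 44.4% in Tubb4a and 45.2% in Pcsk1n. None of them held GGACT, Ppp1r9b and Pcsk1n held no GGAC, and Nudc held 3 GGAC.

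The second set holds weak peaks that overlapped a far stronger peak in another group, chosen for the size of that difference. Vgf (chr5:137031241-137031300, plus strand, coding exon) encodes a secreted neuropeptide precursor, Son (chr16:91656033-91656212, plus strand, coding exon) a splicing cofactor of nuclear speckles, and Terf2 (chr8:107072577-107072636, minus strand, coding exon) a telomere-binding protein. The purine share was 43.3% in Vgf, 54.4% in Son and 70.0% in Terf2, and 55.7% in Tspyl1 and 60% in Stmn3 of the same set, which are not printed, so this set was not of 1 kind.
Vgf: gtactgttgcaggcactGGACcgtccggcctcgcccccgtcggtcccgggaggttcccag
Son: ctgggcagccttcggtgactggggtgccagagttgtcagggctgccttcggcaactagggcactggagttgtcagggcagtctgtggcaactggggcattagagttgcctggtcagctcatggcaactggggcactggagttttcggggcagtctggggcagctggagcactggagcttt
Terf2: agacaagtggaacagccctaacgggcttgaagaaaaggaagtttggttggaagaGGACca

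Weak peaks were a small part of each list. They numbered 317 of 13027 in aSyn Tg 15 mo (2.43%, 95% Wilson interval 2.18 to 2.71%) and 368 of 13327 in aSyn Tg 3 mo (2.76%, 2.496 to 3.05%), against 435 of 14123 in Wt 15 mo (3.08%, 2.81 to 3.38%) and 502 of 13860 in Wt 3 mo (3.62%, 3.32 to 3.95%). The share was lower in both aSyn Tg lists than in both Wt lists, and lower at 15 mo than at 3 mo in each genotype. With 1 list per group there is no spread between mice, so no test between groups could be made, and the intervals cover counting error only. Leaving out peaks with more than 1 exon block, the shares were 1.69% and 2.02% in the aSyn Tg lists and 2.24% and 2.47% in the Wt lists, in the same order.

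The median fold enrichment of the weak peaks was 1.81 in aSyn Tg 15 mo, 1.81 in aSyn Tg 3 mo, 1.81 in Wt 15 mo and 1.80 in Wt 3 mo. Few lay far below the limit. Below 1.5 there were 22 peaks in aSyn Tg 15 mo, 17 in aSyn Tg 3 mo, 25 in Wt 15 mo and 54 in Wt 3 mo. The 4 lowest values were in nuclear long noncoding RNAs of very high input. Meg3 had 1.17 and 1.22 in Wt 15 mo and 1.21 in Wt 3 mo, and Malat1, a speckle RNA, had 1.2 in Wt 3 mo. The limit of 2 falls within a smooth run of values. At 1.99 stood 11, 10, 15 and 20 peaks of aSyn Tg 15 mo, aSyn Tg 3 mo, Wt 15 mo and Wt 3 mo, and at 2.00 stood 11, 9, 15 and 18. Just below were Phldb1 and Snap91 in aSyn Tg 15 mo, Rell2 and Fip1l1 in aSyn Tg 3 mo, Scaf1 and Bex1 in Wt 15 mo and Arhgap32 and Tmem30a in Wt 3 mo. Just at 2 were Igsf8 and Dip2c, Zeb2 and Rusc2, a pair of peaks of Akap12, and Srcin1 and Bdp1 in the same lists. By the false discovery rate of the peak caller the weak peaks were far from marginal, with a median log10 FDR of -11.9 in aSyn Tg 15 mo, -18.6 in aSyn Tg 3 mo, -15.4 in Wt 15 mo and -13.7 in Wt 3 mo, against -19.4, -26.6, -21.8 and -18.4 for all peaks of these lists.

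Weak peaks were narrower than peaks as a whole. Their median width, summed over exon blocks, was 121 nt in aSyn Tg 15 mo, 150 nt in aSyn Tg 3 mo, 121 nt in Wt 15 mo and 151 nt in Wt 3 mo, against 239, 236, 240 and 240 nt for all peaks of these lists. Peaks of 2 to 3 were close to the weak ones, at 151 nt by the median in each list, and peaks of 5 to 15 were 301 to 357 nt wide. Widths come in steps of about 30 nt, so the 4 medians of weak peaks are 1 step apart. A few weak peaks were long. One in App, the amyloid precursor protein, covered 775 nt in 6 exon blocks at a fold enrichment of 1.97 in aSyn Tg 15 mo. In Map1b, a microtubule-associated protein of axons, single-exon weak peaks of 659 nt (1.64, Wt 3 mo) and 599 nt (1.95, aSyn Tg 3 mo) lay in the coding sequence, and in Map2, its dendritic counterpart, 1 of 571 nt (1.89, Wt 3 mo).

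They crossed exon junctions far more often than other peaks. The share with more than 1 exon block was 38.5% in aSyn Tg 15 mo, 35.9% in aSyn Tg 3 mo, 37.0% in Wt 15 mo and 40.4% in Wt 3 mo, against 11.5%, 12.5%, 13.2% and 12.5% of all peaks. It was lower in each higher band of fold enrichment, at 38.1% below 2, 20.7% from 2 to 3, 11.02% from 3 to 5, 9.77% from 5 to 15 and 4.57% at 15 or more over the 4 lists. Seen from the other side, 1.69% to 2.47% of single-block peaks were weak, against 7.84% to 11.2% of peaks with 2 blocks and 6.43% to 13.1% of those with 3 or more.

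**Figure D1:**
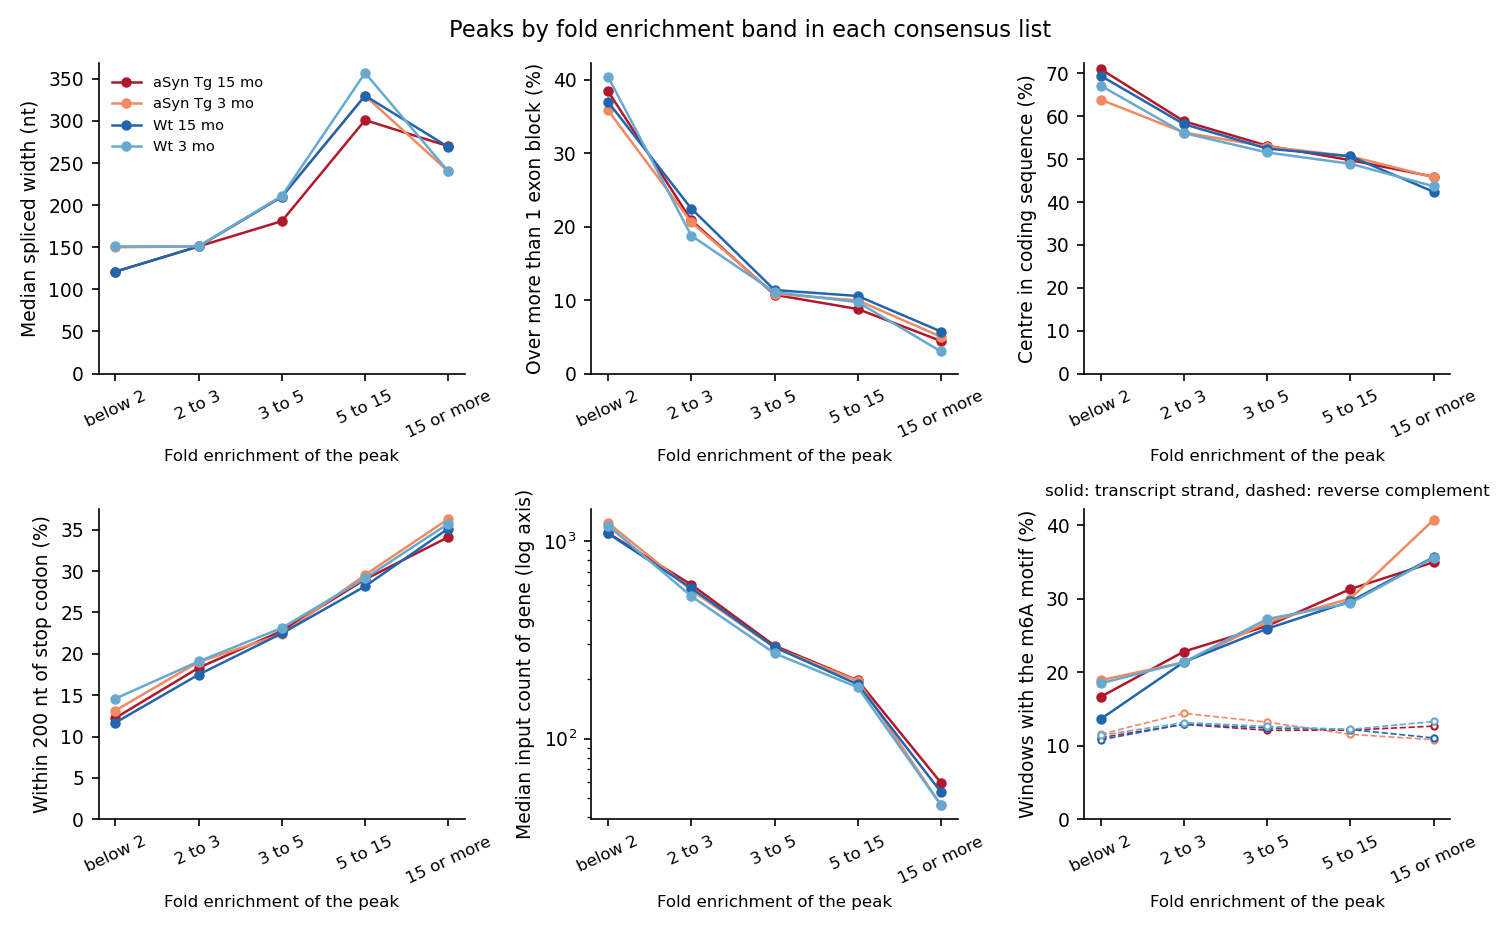
Each panel plots 1 property (y axis) against the band of fold enrichment (x axis, low to high), with 1 line per list: median width, share over more than 1 exon block, share centred in the coding sequence, share within 200 nt of a stop codon, median input count of the gene on a log axis, and share of 150 nt windows with the 5-base m6A motif (solid) or its reverse complement (dashed). The weak peaks at the left were the narrowest or tied for it, with 35.9% to 40.4% over several exon blocks, 63.9% to 71.0% in the coding sequence, and median gene counts of 1096 to 1240.

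Position along the transcript also set them apart. Their centre lay in the coding sequence for 71.0% in aSyn Tg 15 mo, 63.9% in aSyn Tg 3 mo, 69.4% in Wt 15 mo and 67.1% in Wt 3 mo, against 52.3%, 52.6%, 52.6% and 51.5% of all peaks. The 3′UTR held 12.3%, 19.3%, 15.2% and 17.9% of them, against 33.7%, 33.1%, 33.0% and 34.6% of all peaks. Within 200 nt of the stop codon, where m6A is usually most dense, lay 12.2%, 13.1%, 11.7% and 14.6% of weak peaks on coding transcripts, against 25.4%, 25.02%, 24.4% and 25.1% of all. The 5′UTR held 10.05% of weak peaks, 10.4% of peaks from 2 to 3 and 7.27% of all peaks over the 4 lists.

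The genes of weak peaks were highly expressed. The mean normalised count of the gene over the 19 input libraries had a median of 1100 for weak peaks of aSyn Tg 15 mo, 1240 in aSyn Tg 3 mo, 1096 in Wt 15 mo and 1202 in Wt 3 mo, against 267, 276, 267 and 260 for all peaks. Per kb of exon the medians were 160, 196, 189 and 185, against 43.0, 44.4, 42.5 and 41.9. Fold enrichment has the input reads as its denominator and these libraries are the input, so this link is a description of how the lists are built and was not tested. Peaks of 15 or more stood at the other end, with median gene counts of 46.0 to 59.7.

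When the genes with a peak were split into 5 equal classes by their input count, weak peaks were concentrated in the upper 2. In the lowest class 0.358% of peaks were weak in aSyn Tg 15 mo, 0.308% in aSyn Tg 3 mo, 0.274% in Wt 15 mo and 0.443% in Wt 3 mo. In the highest class, with counts of at least 555, 6.49%, 7.47%, 8.16% and 10.04% were weak. The order of the groups in the highest class was that of the whole lists. The genes with a weak peak that could be matched to the count table (758) made up 3.92% of its genes and took 21.4% to 22.6% of the reads of each library.

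**Figure D2:**
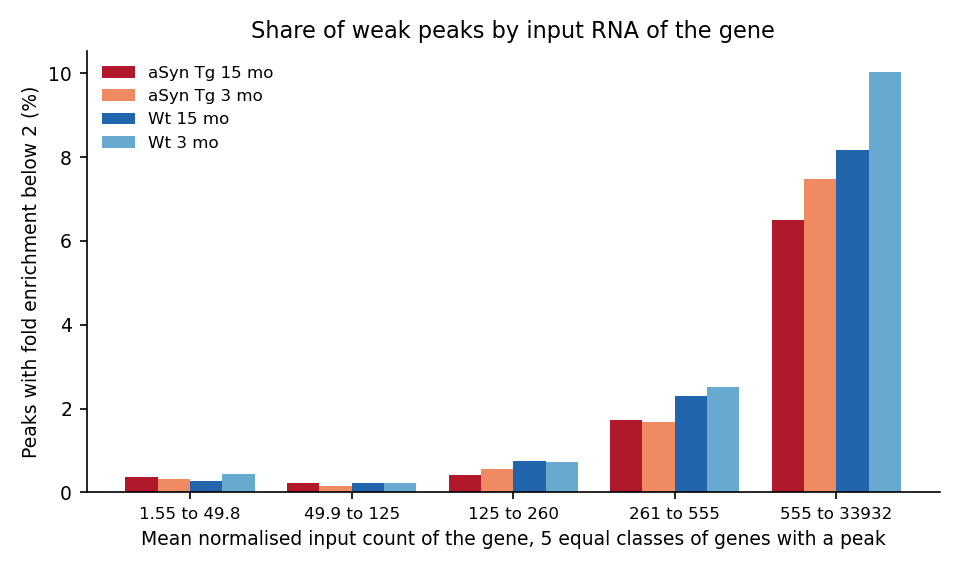
Share of peaks with a fold enrichment below 2 (y axis, %) by input class, 5 equal classes of genes with a peak ordered by mean normalised input count (x axis, low to high), with 1 bar per list. The bars stay at or under 0.755% in the lowest 3 classes and reach 6.49% to 10.04% in the highest.

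Width, exon blocks and position were also read among the more abundant genes alone. Among peaks of genes in the upper 2 input classes (counts of at least 261), weak peaks were 121 to 151 nt wide by the median and all peaks 270 to 271 nt, 37.6% to 40.8% of weak peaks and 16.6% to 19.2% of all peaks had more than 1 exon block, and 65.0% to 73.9% against 54.5% to 55.6% lay in the coding sequence. Peaks of 2 to 3 of these genes were 151 to 180 nt wide by the median. Gene counts were not equal within these 2 classes, since most of the weak peaks lay in the highest one.

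Sequence windows of 150 nt on the spliced transcript, centred on the peak, could be read for 1566 weak peaks of 53316 windows in all. GGACT, the most frequent form of the m6A motif, occurred in 16.9% of windows of weak peaks, 21.7% from 2 to 3, 26.6% from 3 to 5, 30.1% from 5 to 15 and 36.3% at 15 or more, and in 27.5% of all windows. Its reverse complement, which has the same GC content but fewer purines, occurred in 11.2%, 13.4%, 12.6%, 12.05% and 12.1% of them. The motif was thus less frequent in weak peaks than in any other band. The shorter GGAC, which every GGACT contains, occurred in 56.3% of weak windows and 64.7% of all. A match says only that the letters are there, since the position of the methylated base is not known.

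Purine-rich sequence went the other way. Windows with at least 60% G and A made up 48.7% of weak peaks, 29.0%, 20.4%, 17.8% and 17.7% in the bands above, and 21.2% of all windows. Windows with at least 60% C and T made up 5.04% of weak peaks and 5.52% of all. The 5 bases GAGGA, searched because the printed sequences held them, occurred in 51.4% of weak windows, 39.3%, 34.7%, 34.0% and 32.9% in the bands above and 35.5% of all, while their reverse complement occurred in 17.8% and 18.7%. Within the coding sequence alone GAGGA was in 57.6% of weak windows and 34.4% of those at 15 or more, and within genes of the upper 2 input classes 49.97% of weak windows and 21.1% at 15 or more were purine-rich. The search for GAGGA and for purines was chosen after the sequences had been seen, and windows of overlapping peaks in different lists share bases, so these shares are a description.

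**Figure D3:**
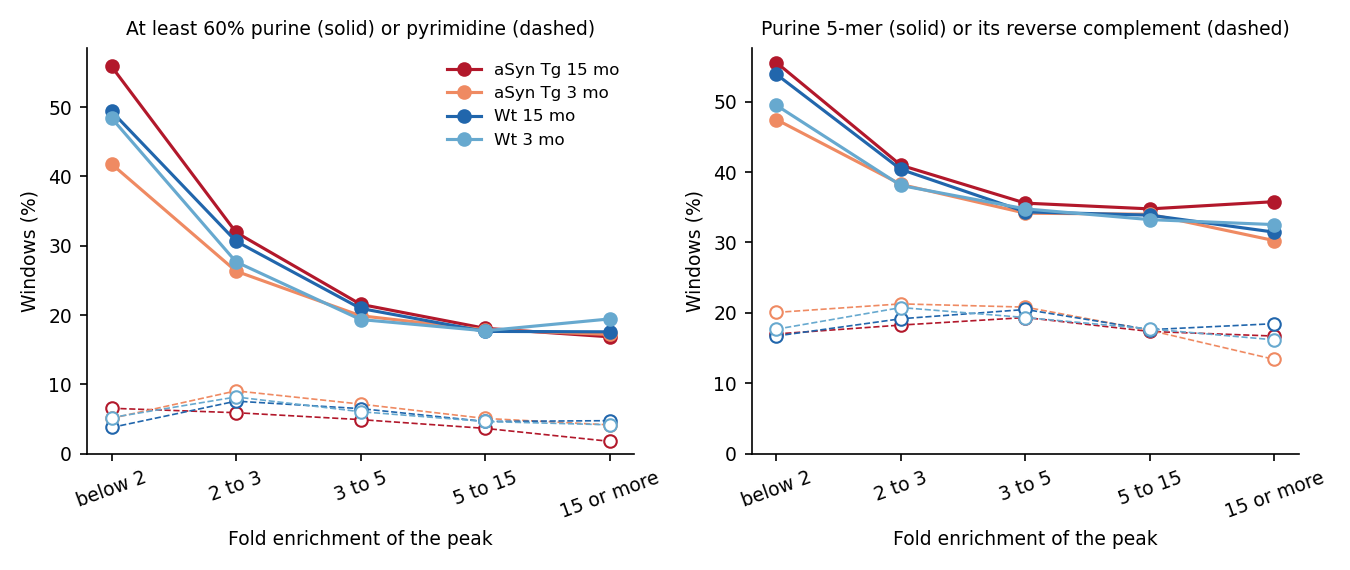
Sequence of the 150 nt windows by band of fold enrichment (x axis, low to high), with shares of windows in % on the y axis and 1 line per list. At the left are windows with at least 60% purine (solid) or at least 60% pyrimidine (dashed), at the right windows with the purine 5-mer (solid) or its reverse complement (dashed), and below 2 the purine-rich share was 55.9% in aSyn Tg 15 mo, 41.8% in aSyn Tg 3 mo, 49.4% in Wt 15 mo and 48.4% in Wt 3 mo, the highest band of each list.

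Most weak peaks were found again in another group. With at least 1 base shared on the same strand, 88.3% of the weak peaks of aSyn Tg 15 mo overlapped some peak in at least 1 of the other 3 lists, as did 84.2% in aSyn Tg 3 mo, 77.9% in Wt 15 mo and 93.8% in Wt 3 mo. For all peaks of these lists the shares were 95.7%, 95.003%, 92.8% and 93.2%. So weak peaks recurred less often than peaks as a whole in 3 lists, and about as often in Wt 3 mo. Other bands were below all peaks too. Peaks of 2 to 3 were found in at least 1 other list in 93.5%, 87.8%, 88.7% and 88.4%. Those of 15 or more were found in 90.8%, 90.6%, 89.9% and 87.1%. Peaks of 5 to 15 were found most often, in 95.5% to 98.0%. In all 3 other lists 46.1%, 41.3%, 31.5% and 49.4% of weak peaks were found, against 79.1%, 75.8%, 70.8% and 71.7% of all peaks. For peaks of 2 to 3 this was 64.4%, 51.0%, 45.7% and 51.5%. Weak peaks found in no other list had a median width of 91 nt, a median log10 FDR of -10 and a median gene count of 994, and 27.0% had several exon blocks, while those found in all 3 had 180 nt, -22.2, 1322 and 43.5%. The part of these properties in recurrence was not tested.

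Between 2 lists, the share found ran from 53.1% (weak peaks of Wt 15 mo in aSyn Tg 15 mo) to 84.1% (weak peaks of Wt 3 mo in Wt 15 mo). Within an age, 77.9% of the weak peaks of aSyn Tg 15 mo were found in Wt 15 mo and 53.1% of those of Wt 15 mo in aSyn Tg 15 mo, and 60.9% of the weak peaks of aSyn Tg 3 mo in Wt 3 mo and 72.7% of those of Wt 3 mo in aSyn Tg 3 mo. Where they were found, most were close to 2 there too. Of those found, 41.4% to 80.1% were below 2 in the other list as well, and 1.28% to 10.5% reached 3 or more. The best overlapping peak elsewhere was 1.16 times as high by the median over the 1400 weak peaks with an overlap.

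**Figure D4:**
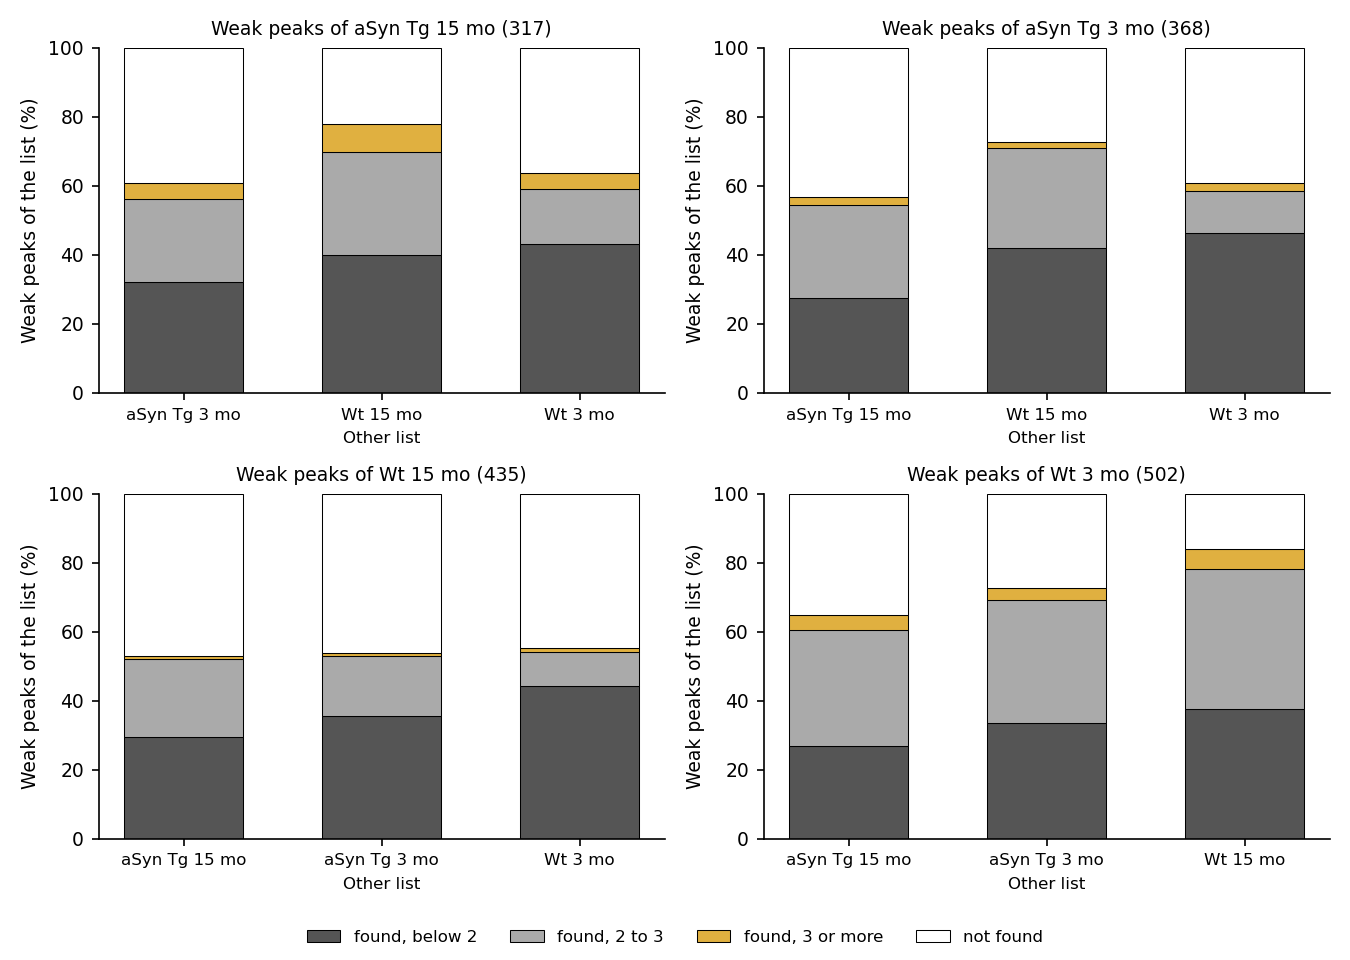
Weak peaks of each list (1 panel per list, number of weak peaks in the title) by what they met in each of the other 3 lists (x axis), as a share of the weak peaks in % (y axis): a peak below 2 (dark), a peak of 2 to 3 (grey), a peak of 3 or more (yellow) or none (white). The share found runs from 53.1% to 84.1%, and the yellow part is the smallest part of every bar.

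The weak peaks of the 4 lists fell into 985 joined intervals. Of these, 598 were weak in 1 list, 220 in 2, 113 in 3 and 54 in all 4. Among the 598, 377 met a peak of 2 or more in another list and 221 met none. The 54 weak in all lists lay in 49 genes, 39 in the coding sequence, 8 in 3′UTRs, 2 in 5′UTRs and 5 in exons without coding sequence, and 24 spanned several exon blocks. Their genes had a median input count of 1542. Tspyl4 (plus strand) and Gm26564 (minus strand) are counted as separate intervals, though they cover nearly the same bases of chromosome 10. Tspyl4 had 1.72, 1.71, 1.71 and 1.61 in aSyn Tg 15 mo, aSyn Tg 3 mo, Wt 15 mo and Wt 3 mo. Gm26564 had 1.72, 1.72, 1.71 and 1.61, with a gene count of 3.50 against 1255. Whether these are separate peaks was not tested. In 53 of the 54 every overlapping peak was below 2, the exception being Malat1, whose weak stretch (1.43 in aSyn Tg 15 mo, 1.51 in aSyn Tg 3 mo, 1.24 in Wt 15 mo and 1.2 in Wt 3 mo) also met stronger peaks.

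The 14 with the lowest mean among the 53 are given as a description, since being low in every list is what chose them. The interval of Meg3 printed above had 1.32 in aSyn Tg 15 mo, 1.42 in aSyn Tg 3 mo, 1.22 in Wt 15 mo and 1.26 in Wt 3 mo. Apoe, the main brain apolipoprotein made by astrocytes, had 1.44, 1.43, 1.46 and 1.32 in the same order, in its coding sequence. St13, a cochaperone of the heat shock proteins, had 1.57, 1.65, 1.46 and 1.33 over 4 exon blocks. The lowest value was that of Wt 15 mo in Meg3 and that of Wt 3 mo in Apoe and St13.
Pcsk1n had 1.48, 1.70, 1.54 and 1.34. Myh10 had 1.52, 1.54, 1.62 and 1.43. Dctn1, the largest dynactin subunit, had 1.40, 1.60, 1.53 and 1.58. Pcsk1n and Myh10 were lowest in Wt 3 mo and Dctn1 in aSyn Tg 15 mo. Zfp148 had 1.59, 1.54, 1.57 and 1.48, Ppp1r9b 1.43, 1.65, 1.63 and 1.49, and Tubb4a 1.59, 1.62, 1.59 and 1.43. Nudc had 1.53, 1.63, 1.56 and 1.53, Gnl1 1.61, 1.64, 1.58 and 1.44, and a second interval of Meg3 1.54, 1.63, 1.52 and 1.56. None of the values given so far was above 1.70. Ywhae, a phosphoserine-binding adaptor, had 1.70, 1.66, 1.55 and 1.44, and App had 1.64, 1.62, 1.75 and 1.40 in its 3′UTR, just past the stop codon. Over the 54, Wt 3 mo held the lowest value in 29, aSyn Tg 15 mo in 11, Wt 15 mo in 7 and aSyn Tg 3 mo in 4, with 3 ties, and the median range across the lists was 0.24. These values come from pooled lists without replicates, so whether the groups differ in them was not tested.

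**Figure D5:**
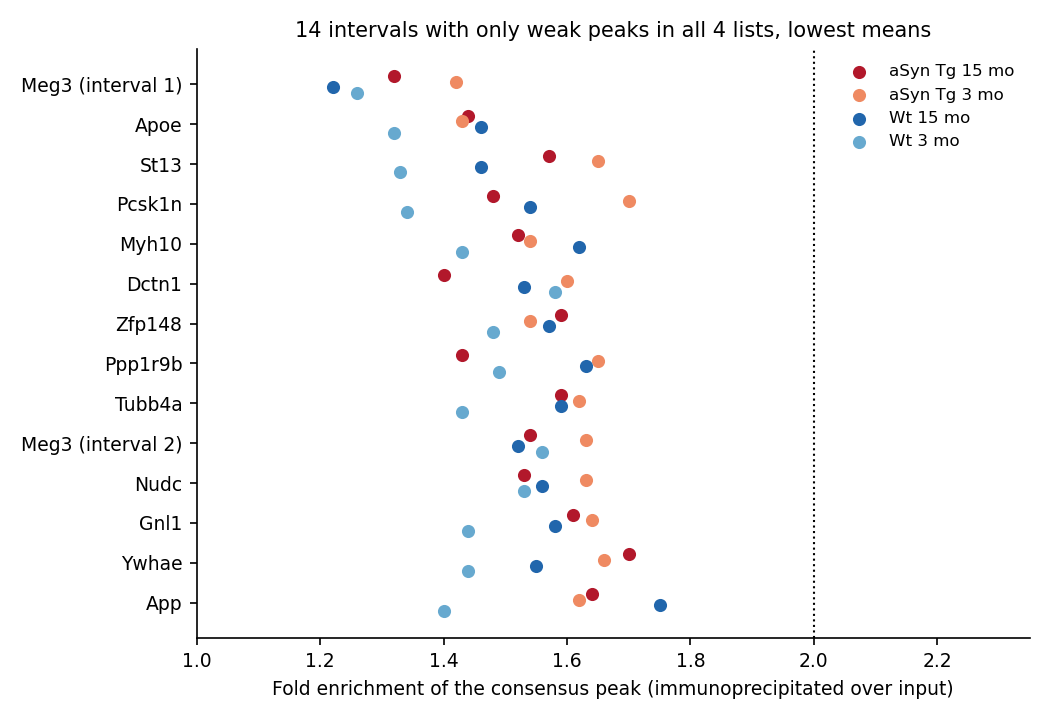
Fold enrichment (x axis) of the 14 intervals with the lowest mean among the 53 whose peaks were below 2 in every list (rows), with 1 point per list and the limit of 2 as a dotted line. All points lie between 1.22 and 1.75, and Wt 3 mo is the leftmost point of most rows.

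A few weak peaks met a much stronger peak. The ratio of the best overlapping peak to the weak one was over 2 for 53 of 1400 (3.79%), where the weak peak had a median width of 143 nt and the other peak 836 nt. In Vgf a 60 nt peak of 1.57 in Wt 3 mo lay inside a peak of 2676 nt at 15.1 in aSyn Tg 3 mo. In Son, 180 nt at 1.99 in Wt 3 mo lay inside 870 nt at 16.2 in aSyn Tg 15 mo. In Tspyl1, a nucleosome assembly protein of the TSPY family, 61 nt at 1.62 in Wt 3 mo lay inside 1588 nt at 8.28 in Wt 15 mo. In these the stronger peak was the far longer one. Stmn3, a stathmin that destabilises microtubules, had 1.71 over 180 nt in aSyn Tg 15 mo and 8.68 over 569 nt in Wt 3 mo. Agap2 had 1.83 in Wt 3 mo and 10 in Wt 15 mo, Terf2 1.96 in aSyn Tg 3 mo and 9.42 in aSyn Tg 15 mo, and Tcf20 1.97 in Wt 3 mo and 9.17 in Wt 15 mo. In 5 of these 7 the weak peak was that of Wt 3 mo.

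The 781 genes had weak peaks in 1 list (403), 2 lists (197), 3 lists (116) or all 4 (65). Protein-coding genes held 96.6% of weak peaks and 94.4% of all. In 659 genes a peak of 2 or more was listed too, so that the weak peak was one of several on the transcript, and in 122 no peak reached 2 in any list. Kif1a, a motor of synaptic vesicle precursors, had 1.29 in aSyn Tg 15 mo and 1.32 in aSyn Tg 3 mo and no peak in either Wt list. Ap3d1, an adaptor subunit of endosomal sorting, had 2 weak peaks in each list, from 1.55 to 1.95. Canx, an ER chaperone (1.63 to 1.87), Apoe and Ywhae had 1 in each.

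Meg3 had most weak peaks, 20 of its 36 peaks over the 4 lists. Map1b followed with 17 of 35, Myh10 with 11 of 23, Ank2, an ankyrin that anchors membrane proteins to the spectrin skeleton, with 11 of 33, Sptbn1, a beta-spectrin, with 10 of 22, and Map7d1, a microtubule-associated protein, with 9 of 21. In all of them at least 1 peak was above 3. Of the 50 genes with the highest input count 39 had a peak and 29 a weak one (58.0%). Of the 500 highest 212 had a weak peak (42.4%), and of the 10905 genes with a count of at least 50, 746 (6.84%).

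By function, weak peaks were common among genes of the neuronal skeleton. In the cytoskeleton and axon list 87 of 373 peaks were weak (23.3%, against 2.99% of all peaks), in 18 of 24 genes with a peak, and the median gene count of this list was 3936 against 183 over all genes with a peak. Kif5a, a kinesin heavy chain of axonal transport, had 8 of 15 weak, with 1.90 at the lowest in aSyn Tg 15 mo, 1.30 in aSyn Tg 3 mo, 1.84 in Wt 15 mo and 1.36 in Wt 3 mo. Mapt, which encodes tau, had 4 of 16, and both listed peaks of Tuba1a were weak, although reads of tubulins can be shared between near-identical copies. The chaperones had 11 of 48 (22.9%), among them Canx, Hsp90ab1, Calr, Pdia3 and Pdia4. The long noncoding RNAs had 27 of 119 (22.7%), 24 of them in Meg3 and Malat1.

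Among genes of the presynapse 51 of 360 peaks were weak (14.2%), in 16 of 34 genes. The vesicle proteins Syn1 (lowest 1.44), Syp (1.5, its only peak), Vamp2 (1.59) and Rab3a (1.74), the fusion ATPase Nsf (1.60), and the endocytic Dnm1 (1.5) and Cltc (1.74) were among them. On the postsynaptic side the share was 4.93%, 20 of 406 in 9 of 36 genes, 6 of the 20 in Ppp1r9b. The median gene count was 1559 in the presynaptic list and 869 in the postsynaptic one. Ion pumps and channels had 32 of 193 (16.6%), RNA-binding and splicing factors 27 of 160 (16.9%), astrocyte genes 16 of 93 (17.2%) and myelin genes 16 of 99 (16.2%). Chromatin genes, at 24 of 539 (4.45%), were near the whole. Microglia had 0 of 32 and the respiratory chain 0 of 12. These shares are a description and not a test of any list. The median gene counts were 1127 for chromatin genes, 667 for chaperones and 522 for myelin genes. They were 1547 for ion pumps and channels, 1524 for astrocyte genes, 1497 for long noncoding RNAs and 887 for RNA-binding and splicing factors. Microglia had 127 and the respiratory chain 345. A median over a list is not the count of the genes that carry its weak peaks. The part of gene count in these shares was not tested.

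In the m6A machinery 0 of 73 peaks in writer genes, 2 of 8 in eraser genes (25%) and 3 of 58 in reader genes (5.17%) were weak, against 2.99% of all peaks. The median gene count was 215 for writers, 904 for erasers and 307 for readers, against 183 over all genes with a peak. The part of gene count in these shares was not tested. The median fold enrichment in writer genes was 5.83. Alkbh5 had 1 of 4 peaks weak (1.78, Wt 3 mo) and Fto 1 of 4 (1.95, aSyn Tg 3 mo). Among readers, Hnrnpa2b1 had only weak peaks, at 1.81 in aSyn Tg 3 mo, 1.75 in Wt 15 mo and 1.61 in Wt 3 mo. Of the synucleins, Sncb was weak once (1.81, Wt 3 mo) and Sncg once (1.89, aSyn Tg 3 mo).

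The authors also listed intervals that differ in m6A between 2 groups. Between aSyn Tg 15 mo and aSyn Tg 3 mo, 84 of 466 such intervals overlapped a weak peak of either list (18.03%). The share was 22.1% (83 of 375) for aSyn Tg 15 mo against Wt 15 mo, 17.0% (123 of 723) for aSyn Tg 15 mo against Wt 3 mo, 23.2% (101 of 436) for aSyn Tg 3 mo against Wt 3 mo, 28% (42 of 150) for Wt 15 mo against aSyn Tg 3 mo, and 19.4% (88 of 454) for Wt 15 mo against Wt 3 mo. Of the peaks hit by a differential interval, 9.33% to 16.8% were weak, while weak peaks were 2.60% to 3.35% of the 2 lists together. So the intervals met weak peaks more often than their share of the lists. Of the intervals with a weak peak, 33, 37, 43, 41, 20 and 29 in the order above met weak peaks only. The larger part in each comparison also met a peak of 2 or more.

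Read per peak, 451 of 1622 weak peaks (27.8%) lay in at least 1 differential interval, against 4315 of 54337 of all peaks (7.94%). By comparison, 15.0%, 12.6%, 18.4%, 15.6%, 6.72% and 12.5% of weak peaks were hit in the order given above, against 3.48%, 2.64%, 6.02%, 3.89%, 1.17% and 4.28% of all. Peaks of 2 to 3 lay in between, hit in 2.85% to 8.48%. Among genes of the upper 2 input classes the weak peaks were hit in 7.20% to 18.6%, peaks of 2 to 3 in 3.62% to 10.6% and peaks of 3 to 5 in 1.79% to 7.36%. There, peaks of 15 or more reached 22.2% for aSyn Tg 15 mo against Wt 3 mo, above the 18.6% of weak peaks in that comparison. Differential intervals were longer than peaks, with medians of 421 to 820 nt, and 47.2% to 60.3% of them spanned several exon blocks. The part of length, exon blocks and read depth in these overlaps was not tested. The 3 lowest weak peaks within such intervals were read in each comparison. Meg3 and Malat1 were each among them in 5 of the 6 comparisons, and Kif5a (1.30, aSyn Tg 3 mo) and Phldb1 (1.40, aSyn Tg 3 mo) also appeared. The direction of each interval belongs to the authors' own test and was not used.

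Few genes with a weak peak were called in the input RNA. The test was edgeR's quasi-likelihood test on the reads of all genes with a mean normalised count of at least 50, and a gene was called at a fold change of 1.2 or more with an adjusted p no higher than 0.05. The 19 input libraries held 2163856 to 9195756 reads, the lowest in aSyn Tg 15 mo library 5, where the 10 most abundant genes took 10.004% of reads against 5.44% to 7.88% in the other libraries. Markers of neurons, dopaminergic cells, astrocytes, oligodendrocytes, their precursors, endothelium and microglia were read in every library. Whether less RNA comes from fewer cells of a type or from less RNA per cell cannot be told apart in such tissue. Where groups of a called gene are said below not to overlap, this is a description, since the same values called the gene. The share of all genes without overlap is not given here.

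With age in aSyn Tg, 3 of 747 genes with a weak peak were called (0.402%), where 0.918% of all genes were. Ctsd, the lysosomal protease cathepsin D, whose single peak was 1.99 in aSyn Tg 15 mo, had 97.9, 104, 130, 131 and 165 CPM (a library's reads scaled to the same total) in aSyn Tg 15 mo, against 76.4 to 78.5 CPM in the 5 aSyn Tg 3 mo libraries. The groups did not overlap, and the log2 difference was 0.67 (SE 0.10, edgeR adjusted p 0.00542). Apoe had a lowest value of 849, a median of 925 and a highest of 1274 CPM in aSyn Tg 15 mo, against 696, 718 and 826 CPM in aSyn Tg 3 mo (log2 0.46, SE 0.09, edgeR adjusted p 0.0314), without overlap. Ctsb, cathepsin B, had 313, 329 and 406 CPM, against 270, 283 and 287 CPM (log2 0.29, SE 0.06, edgeR adjusted p 0.0373), without overlap. Microglial markers summed to 144 to 223 CPM in aSyn Tg 15 mo, against 116 to 121 CPM in aSyn Tg 3 mo, and astrocyte markers to 936 to 1408 CPM, against 703 to 898 CPM, and their part in these 3 genes was not tested. Ctsd was called with each library left out, Apoe in 4 of 10 such fits and Ctsb in 2 of 10. The only peak of Ctsd lay in the list of aSyn Tg 15 mo. That group also had its highest mean, 126 CPM, against 75.3 to 85.2 CPM in the other groups. The place of Ctsd among genes with a weak peak may thus not be independent of its rise. Without aSyn Tg 15 mo library 5, 5 genes with a weak peak were called and Ctsb was not (log2 0.23).

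With age in Wt, 4 of 746 were called (0.536%), where 0.361% of all genes were. Gnas, the stimulatory G protein alpha subunit, fell to 113, 132, 143, 147 and 147 CPM in Wt 15 mo, against 180, 186, 197 and 212 CPM in Wt 3 mo (log2 -0.50, SE 0.07, edgeR adjusted p 0.0219). Vgf had 157, 182, 184, 205 and 208 CPM in Wt 15 mo, against 227, 235, 249 and 263 CPM in Wt 3 mo (log2 -0.38, SE 0.07, edgeR adjusted p 0.0496). Soga1 fell by 0.31 on the log2 scale (SE 0.06, edgeR adjusted p 0.0462), and Slc1a3, the glial glutamate transporter GLAST, rose by 0.37 (SE 0.07, edgeR adjusted p 0.0453). The ranges of these genes did not overlap between the ages, but the same values called them, so this adds no support. Leaving out 1 library at a time, the number called ran from 0 to 21, with 0 without Wt 3 mo library 2, 4 or 5, 1 without Wt 15 mo library 1, 2 or 5 or Wt 3 mo library 3, and 21 without Wt 15 mo library 3, where 326 of all 10816 genes were called. Gnas was kept in 6 of 9 of these fits, Slc1a3 in 2, and Vgf and Soga1 in 1 each, and the last 2 were also not called with RLE size factors, with limma on log2 values or with all 4 groups in 1 fit. Microglial markers summed to 137 to 158 CPM in Wt 15 mo, against 116 to 132 CPM in Wt 3 mo, markers of oligodendrocyte precursors to 116 to 128 CPM, against 142 to 150 CPM, endothelial markers to 196 to 208 CPM, against 222 to 256 CPM, and astrocyte markers to 798 to 958 CPM, against 781 to 896 CPM, and their part in these 4 genes was not tested. The astrocyte markers were Gfap, Aqp4, Aldh1l1 and Slc1a3, so their sum contains 1 of these 4 genes and is no separate reading for it. An unadjusted p under 0.05 was found for 22.7% of genes with a weak peak and 15.6% of all genes, which was not tested further.

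Between genotypes at 3 mo, 2 of 748 were called (0.267%), where 0.835% of all genes were. Both encode chaperones of the endoplasmic reticulum. Calr, calreticulin, had 365, 400, 406, 422 and 438 CPM in aSyn Tg 3 mo, against 480, 505, 509 and 535 CPM in Wt 3 mo (log2 -0.31, SE 0.05, edgeR adjusted p 0.00603). Pdia4, a protein disulfide isomerase, had 93.4, 103, 105, 107 and 112 CPM, against 131, 133, 142 and 146 CPM (log2 -0.41, SE 0.05, edgeR adjusted p 0.00151). The groups did not overlap in either, and both were called with each library left out, but Pdia4 was not called with all 4 groups in 1 fit (edgeR adjusted p 0.0896). At 15 mo 0 of 744 were called by edgeR, where 0.220% of all genes were, 80 had an unadjusted p under 0.05 (10.8%, against 11.2% of all genes), and DESeq2 called 2, of 87 among all genes. The difference of the age effect between genotypes was called for 0 of 746 by edgeR, where 0.00917% of all genes were, with 83 at an unadjusted p under 0.05 (11.1%, against 10.5% of all genes). Whether the share called differed between genes with a weak peak and all genes was not tested, and it rests on at most 4 genes in each comparison.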

How the data were processed

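RNA of mouse midbrain was measured in 40 samples, 20 of them input and 20 m6A immunoprecipitates. Per the methods, reads were cleaned with Cutadapt and mapped to mm10 with STAR, whereas GEO's processing field names mm9 and DESeq. The authors called peaks with MeTPeak and differential intervals with exomePeak. The methods name RiboMinus depletion and SMARTer Pico and TruSeq kits, the labels a TruSeq small RNA kit.

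The deposited peak lists give the fold enrichment of each peak as a ratio of immunoprecipitated to input reads, pooled per group. The deposited log10 FDR and coordinates were used as they stand. Block starts garbled in the table were decoded for 1515 peaks, and 25 took the exons of their gene. The deposited input values are a signal, counts that the authors divided by a size factor, in which whole reads were recovered for 100% of 392401 values (tolerance 0.01). In the tables, 36 further library columns were not used. Columns with the authors' own comparisons hold fold changes and p-values and were not used.

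Overlap needs 1 base on the same strand. Regions and windows come from 1 GENCODE M21 transcript per gene (9045 transcripts), sequences from RefSeq's GRCm38.p6 genome. Reads of 19 libraries (2163856 to 9195756) went into a quasi-likelihood test with TMM scaling (R 4.3.3, edgeR 4.0.16), adjusted after Benjamini-Hochberg, on genes with a mean count of at least 50, calling fold changes from 1.2 with an adjusted p up to 0.05, with DESeq2 1.42.0 and limma 3.58.1 as alternatives, and tested on simulated data. Peaks were handled in Python 3.11.15 with pandas 2.3.3, NumPy 2.4.6 and SciPy 1.17.1, and plots made with matplotlib 3.10.9. No source names mice for the libraries beyond the sample labels, and p-values measure the spread between these samples.

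The peaks, the 22 gene lists and the rules below were chosen with earlier results of these data known. Named were the 15 intervals with the lowest mean, among those with only weak peaks in all lists, in genes with a count of at least 50, the 2 peaks on either side of the limit per list, the 8 weak peaks with the largest ratio to another list, the 6 genes with most weak peaks, the 4 widest and 4 lowest peaks, called genes, m6A machinery, the lowest members of each gene list and the lowest weak peaks in differential intervals. Some genes under these rules are not reported here. Other genes were named after their values were seen. Alternatives were other limits of fold enrichment, single-block peaks, a count of at least 50, other overlap and FDR limits, other tools, scalings and filters, a replicate block and each library left out. The FDR limit of 1e-10 and limma on log2 values were added after seeing the data.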

Additional observations from a re-analysis of the deposited data

Results flagged for a closer look

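In the input RNA of the 9 named genes, 3 of 36 groups of 4 to 5 libraries held a library far from the others by Dixon's criterion, which chance gives in about 1 group in 20. Apoe stood at 826 CPM in aSyn Tg 3 mo library 6, where the next library had 725 CPM. In aSyn Tg 15 mo library 5, the shallowest of the libraries, Vgf stood at 321 CPM, where the next had 233 CPM, and Soga1 at 247 CPM, where the next had 190 CPM.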

How the results depend on the processing

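Of 164 alternative values, 81 were marked as unchanged. Shares and medians were so marked when they lay within the error interval of the main value. Counts of called genes have no such interval and were so marked when equal or close to the main count. Fits with a library left out are not among the 164. The genes called in the main tests kept the sign of their log2 difference in each alternative fit. DESeq2 called 4 genes higher and 1 lower with age in aSyn Tg, where the main test called 3 higher and 0 lower. With a limit of 1.5 the weak share was 0.169%, 0.128%, 0.177% and 0.390% in aSyn Tg 15 mo, aSyn Tg 3 mo, Wt 15 mo and Wt 3 mo, and with 2.5 it was 7.76%, 8.91%, 9.35% and 10.5%, so at 1.5 aSyn Tg 15 mo no longer had the lowest share. With a gene count of at least 50 it was 2.72%, 3.12%, 3.50% and 4.12%, with single-block peaks 1.69%, 2.02%, 2.24% and 2.47%, and at an FDR of at most 1e-10 (added after seeing the data) 1.95% in aSyn Tg 15 mo. An FDR limit of 0.001 could change no share, since the highest log10 FDR of any listed peak was -3.59. These unchanged values are among the 81. The median width at 1.5 was 120.5, 91.0, 120.0 and 121 nt, and for single-block peaks 120.0 nt in aSyn Tg 15 mo and Wt 15 mo and 121 nt in Wt 3 mo. The median gene count was 2856, 2539, 2923 and 1711 at 1.5 and 854, 882, 799.6 and 822 at 2.5, and 1295 for single-block peaks of Wt 3 mo.

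Recurrence in at least 1 other list was 82.6% in aSyn Tg 15 mo when 50% of the weak peak's bases had to be shared, 77.3% in aSyn Tg 15 mo and 64.7% in aSyn Tg 3 mo at 1.5, and 83.3% in Wt 15 mo and 89.6% in Wt 3 mo at 2.5. Of the differential intervals, those with a weak peak at 1.5 were 1.72% for aSyn Tg 15 mo against aSyn Tg 3 mo, 2.93% against Wt 15 mo and 2.63% against Wt 3 mo, 5.50% for aSyn Tg 3 mo against Wt 3 mo, and 4.00% for Wt 15 mo against aSyn Tg 3 mo and 1.98% against Wt 3 mo. At 2.5 they were 35.8%, 41.3%, 32.2%, 42.7%, 50.7% and 37.9% in this order.

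Genes with a weak peak called with age in aSyn Tg were 3 in the main test, 5 with DESeq2 and 1 to 5 with a library left out. With age in Wt they were 4, 10 with DESeq2, 2 with limma on log2 values (added after seeing the data) or with RLE size factors, and 0 to 21 with a library left out. Between genotypes they were 1 at 3 mo and 4 at 15 mo with all 4 groups in 1 fit, 2 at 15 mo with DESeq2, and 2 to 3 at 3 mo and 0 to 1 at 15 mo with a library left out. The difference of the age effect stayed at 0 with each library left out. The cause of these shifts was not tested. No source says whether the numbers of the libraries pair them, and the correlations of same-numbered libraries, from -0.28 to 0.33, cannot settle it. They were over 0.1 in 3 of 4 pairs for aSyn Tg 15 mo against Wt 15 mo and in 2 of 4 with age in aSyn Tg. With age in Wt and between genotypes at 3 mo 0 pairs were over 0.1. With the number as a replicate block 1 gene with a weak peak was called with age in aSyn Tg, 0 with age in Wt, 2 between genotypes at 3 mo and 1 at 15 mo. Peaks without replicates limit every comparison of lists to counting error, and the input depth of the peaks themselves is unknown.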
